A study of Mus musculus with 16 samples.

Results

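Tnip3 encodes ABIN-3, of the ABIN family of adaptors, known for binding the ubiquitin-editing enzyme A20 (Tnfaip3) and for limiting NF-κB signalling. Whether mouse ABIN-3 itself limits NF-κB was not tested here. NF-κB carries signals of Toll-like and TNF receptors to inflammatory genes, and ABIN proteins that limit that output have a known role in myeloid cells. H3K27ac marks active promoters and enhancers, and a broad acetylated domain over the start of a gene is a usual sign of an active one. The Tnip3 locus was taken as every region that overlaps chromosome 6 from 65525000 to 65590000 (mouse genome build mm9) in the authors' deposited lists of H3K27ac differences. This gave 35 of 273958 listed regions, of which 17 lie in a block near 65533900 to 65548200 and 18 in the rest of the 65 kb window. The gene's extent in mm9 is known here only approximately, from about 65540000 to 65577000. The locus was selected on its measured signal, which was higher in dendritic cell progenitors than in multipotent progenitors, so that contrast is described and not tested.

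The study profiled H3K27ac by chromatin immunoprecipitation and sequencing in 4 sorted cell types of C57BL/6 mice, each with 2 libraries. Multipotent progenitors (MPP) give rise to common dendritic cell progenitors (CDP), and these to classical dendritic cells (cDC), which present antigen, and plasmacytoid dendritic cells (pDC), which make type I interferon. The labels give no treatment or genetic change for any group, and no age, sex or animal, so that the spread between the 2 libraries of a cell type may be technical. They also name different antibody suppliers in different fields. The authors deposited a list for each of 4 pairs of cell types, with the scaled signal of the 4 libraries in every region called as differing. These signals are not read counts, the read depth is unknown, and levels are compared only within a list. In sorted bulk cells, less acetylation in every cell and acetylation in fewer cells cannot be told apart. The identity of the sorted cells was not checked against marker genes, because no mm9 annotation was used here, and neither the 4 input nor the 4 RNA samples were used here. Of the cDC libraries, the second-listed one was the higher, by 0.50 (log2, median over all regions of either list), a wider offset than in any other cell type.

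The Tnip3 promoter is shown because the approximate start of the gene lies inside the widest acetylated region of the locus. RefSeq's window of 250 bases before to 50 after the start has coordinates of build GRCm38.p6, which cannot be set against the mm9 positions given elsewhere. It is chr6:65590148-65590447 on the plus strand, printed 5′ to 3′ with matches to the motifs searched in capitals.
Tnip3 promoter: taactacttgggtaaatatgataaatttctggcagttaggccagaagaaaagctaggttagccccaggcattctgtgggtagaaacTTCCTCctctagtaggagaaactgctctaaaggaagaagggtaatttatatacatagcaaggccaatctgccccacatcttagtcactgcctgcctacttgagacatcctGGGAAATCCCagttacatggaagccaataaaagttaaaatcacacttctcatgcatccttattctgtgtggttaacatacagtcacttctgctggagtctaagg

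Of 7 motifs searched on both strands, 2 matched. The NF-κB pattern, GGGA and CC with any 4 bases between them, matched at a single place that reads as the motif on either strand, GGGAAATCCC, from -54 to -45, where 0 is the first base of the gene. Of 32851 promoters of the same length, 20.7% hold this pattern. The core recognised by PU.1, GAGGAA, matched on the minus strand as TTCCTC from -164 to -159, and 28.3% of the promoters hold it. The other patterns, for an ETS-IRF composite (GGAA and GAAA with any 2 bases between them, in 2.72% of promoters), IRF factors (GAAA and GAAA with any 2 bases between them, 3.44%), AP-1 (TGANTCA, 7.81%), C/EBP (TTGCNNAA, 10.8%) and E-box factors (CANNTG, 72.3%), are not in this window. The first of these overlaps the IRF pattern in part, and a match only describes the letters.

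Joining all listed regions that touch or overlap gave 9 elements across the locus, of which 5 were listed in all 4 lists. From left to right, these 5 are an upstream element of 3.25 kb (65533851 to 65537100), a wide element of 10.35 kb (65537851 to 65548200) that contains the approximate gene start, and a flanking element of 1.65 kb (65549001 to 65550650). The other two, a first gene-body element (65561751 to 65562850) and a second gene-body element (65563801 to 65565500), lie farther inside the gene. The upstream and wide elements make up the block. In the MPP and CDP list, the nearest regions beyond the window lay 55.95 kb to the left of the block and 73.55 kb to its right. Fold differences of single regions are given below for mean signals plus 1, and those of sums without an addition.

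**Figure D1:**
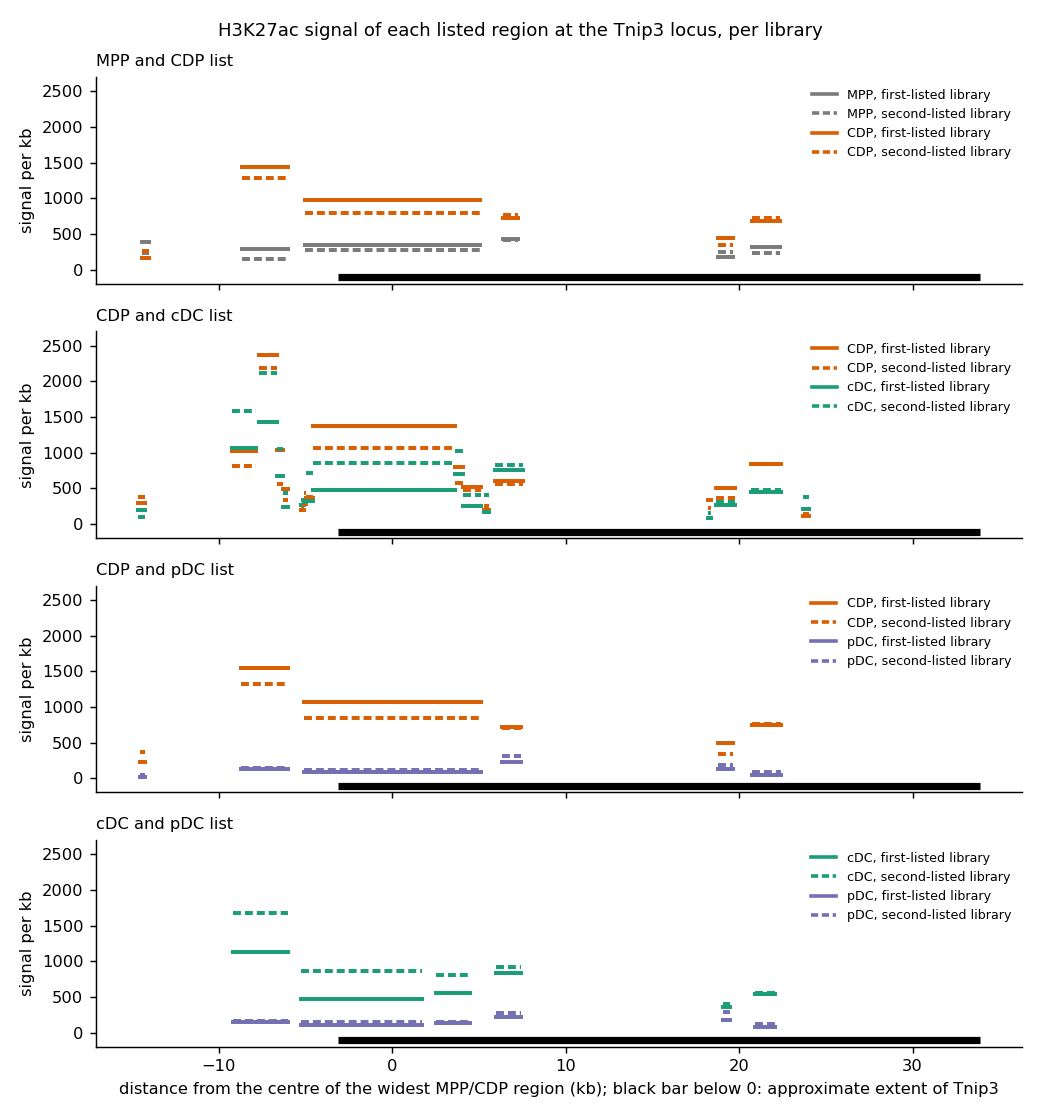
Signal per kb of every listed region (horizontal line segments) against distance in kb from the centre of the widest MPP and CDP region, 1 panel per list, with cell types in colour and the first-listed and second-listed libraries as solid and dashed lines. Over the block, CDP stands above MPP and above pDC in their lists, and cDC above pDC in theirs, and the wide MPP and CDP region averaged 887 per kb in CDP and 309 per kb in MPP.

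From MPP to CDP, acetylation was higher in CDP over the whole block and over the elements inside the gene. Over the 12.75 kb of the block, the summed signals were 4223 and 3193 in the MPP libraries and 13716 and 11404 in CDP. The upstream element had the steeper difference. Its region from 65534451 to 65537100 read 769 and 403 in the MPP libraries and 3805 and 3391 in the CDP libraries, 6.13-fold apart. The wide region from 65538051 to 65548150 read 3454 and 2790 in the MPP libraries and 9911 and 8013 in the CDP libraries, 2.87-fold apart. In both regions the cell types did not overlap. MPP also had signal in the wide region, which contains the approximate gene start, but this was not set against the input samples. At 10.1 kb, the wide region is the longest of the 60816 regions of this list, where the median is 0.55 kb. Its difference in mean signal was the 35th largest, while 87.2% of the regions higher in CDP had a smaller ratio, so it stood out by extent and amount more than by fold. For the upstream region that share was 96.9%. The authors' deposited table gives −log10 p of 525 for the upstream and 641 for the wide region.

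Inside the gene the same direction held with smaller differences. The second gene-body region, from 65563851 to 65565450, read 503 and 368 in the MPP libraries and 1091 and 1163 in the CDP libraries, 2.58-fold apart. The first, from 65561851 to 65562750, had 162 and 221 against 403 and 308, a 1.85-fold difference. The flanking region, from 65549501 to 65550350, had 368 and 350 against 617 and 645, a 1.76-fold difference. All 3 had separate CDP and MPP libraries, meaning that both libraries of one cell type lay above both of the other. The only region called in favour of MPP was the leftmost, from 65528701 to 65529100, with 154 and 95 in the MPP libraries and 63 and 104 in the CDP libraries. There the libraries overlapped as deposited. After rescaling to equal autosomal totals within the list, both MPP libraries lay above both CDP libraries there, with means 1.355-fold apart. Separate libraries in favour of CDP were thus found in 5 of 6 regions, against 26.8% of all regions of the list. Because this contrast chose the locus, that count is a description.

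**Figure D2:**
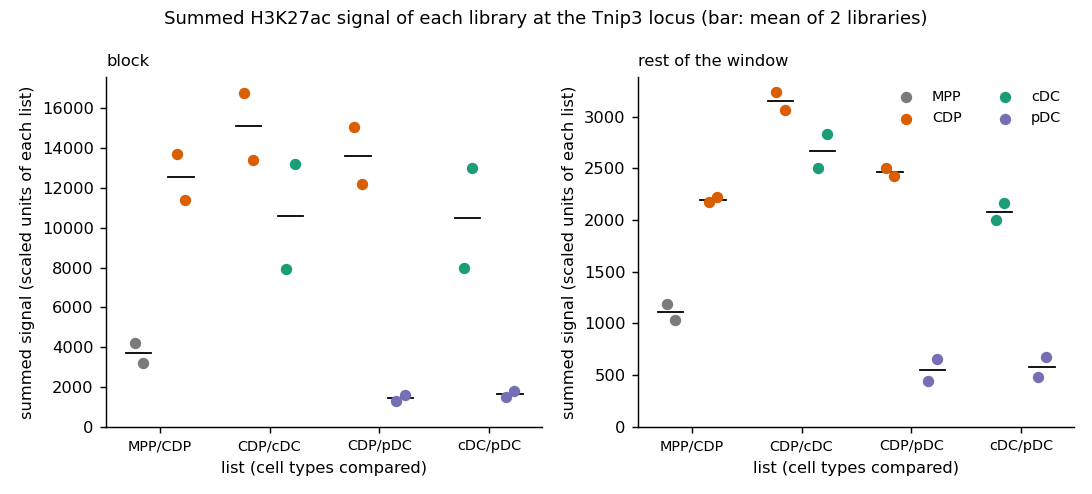
Summed signal of each library (points) in each list, with the mean of 2 libraries as a bar, for the block (left) and the rest of the window (right). The axes are in the scaled units of each list, so heights compare only within a list. In the CDP and pDC list, the sums over the block were 15065 and 12183 in CDP and 1277 and 1588 in pDC.

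From CDP to pDC, acetylation of the locus was lower throughout. Over 12.9 kb of the block, the CDP libraries summed to 15065 and 12183 against 1277 and 1588 in pDC, and over the rest of the window to 2502 and 2429 against 443 and 653, a 4.50-fold difference. The upstream region, from 65534401 to 65537100, read 4175 and 3558 in the CDP libraries and 352 and 401 in the pDC libraries, 10.2-fold apart. The wide region, from 65538001 to 65548200, had 10890 and 8625 against 925 and 1187, a 9.23-fold difference. The second gene-body region, from 65563851 to 65565500, had 1243 and 1264 against 79 and 147, an 11.1-fold difference without the added 1. CDP was thus about as many times above pDC at these 3 places, although their summed levels differ widely. The low pDC signal there was not set against the input samples, so these ratios may depend on background. The difference was smaller at the other 2 elements. The flanking region, from 65549451 to 65550500, read 750 and 743 in the CDP libraries and 238 and 327 in the pDC libraries, 2.64-fold apart. The first gene-body region, from 65561851 to 65562750, had 439 and 310 against 119 and 166, a 2.62-fold difference. Leftmost, a region of 0.3 kb from 65528551 to 65528850 had 70 and 112 in CDP and 7 and 13 in pDC, an 8.36-fold difference on few units of signal.

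All 6 regions had separate libraries in favour of CDP, which 37.8% of all regions of the CDP and pDC list do. Medians of the log2 ratio (pDC over CDP) were -3.14 over the 6 regions and 0.04 over all 69958. The authors' deposited table gives −log10 p from 17.1 at the leftmost to 1755 at the wide region. The CDP libraries are those of the contrast that chose the locus, so these values are a description as well.

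Between CDP and cDC the levels were close, and the elements of the locus differed in direction. Over 13.45 kb of the block the CDP libraries summed to 16799 and 13430 and the cDC libraries to 7952 and 13188, a 1.43-fold higher mean in CDP. The higher cDC library lay just below the lower CDP library, and the ratio was 1.90 without the second-listed cDC library and 1.15 without the first-listed one. The authors' list holds 17 regions of 0.15 to 8.15 kb here, 9 called higher in CDP over 14 kb and 8 called higher in cDC over 5.1 kb, against 57.1% and 42.9% of all regions of the list. Of these, 7 and 4 had separate libraries in the called direction, against 36.0% and 22.0% of the list, and 6 had overlapping libraries. The authors' deposited −log10 p of the 17 ran from 0.462 to 302, so a listed direction is not always a strong call. After rescaling to equal autosomal totals within each list, none of the 35 regions of the locus turned direction. Medians of the log2 ratio (cDC over CDP) were -0.15 over the 17 regions and -0.17 over all 76865.

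Summed over its 6 regions, the wide element was lower in cDC, with 12379 and 9707 in the CDP libraries and 4655 and 8244 in the cDC libraries, but the direction of the call alternated along it. Its main region, from 65538551 to 65546700, read 11244 and 8688 in the CDP libraries and 3832 and 6938 in the cDC libraries, 1.85-fold apart. The authors' deposited table gives it a −log10 p of 302, the largest value of the locus in this list. The region at its right end, from 65547201 to 65548200, had 520 and 479 against 257 and 411, a 1.49-fold higher mean in CDP. A short region from 65538001 to 65538150 was called higher in CDP with overlapping libraries and a deposited −log10 p of only 0.462. The other 3 regions of the element were called higher in cDC. From 65537851 to 65538000 the CDP libraries had 30 and 38 against 39 and 50 in cDC, a 1.30-fold higher mean in cDC with separate libraries on few units of signal. The deposited −log10 p there was only 0.850. The libraries overlapped at the remaining pair, from 65538151 to 65538550 (1.39-fold) and from 65546701 to 65547200 (1.26-fold). The second gene-body element, from 65563801 to 65565500, was lower in cDC by a factor close to that of the main region, with 1422 and 1434 in the CDP libraries and 765 and 808 in the cDC libraries, 1.81-fold apart. The first gene-body element, from 65561751 to 65562850, had 560 and 398 against 284 and 339, a 1.54-fold difference. At the main region and at both gene-body elements, both CDP libraries lay above both cDC libraries.

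The upstream element as a whole did not separate CDP from cDC, with 4420 and 3723 in CDP and 3297 and 4944 in cDC. Its 4 regions alternated in the direction of the call. From 65533851 to 65535250 the CDP libraries had 1427 and 1130 against 1487 and 2216 in cDC, a 1.45-fold higher mean in cDC. From 65535401 to 65536450 they had 2482 and 2297 against 1502 and 2229, a 1.28-fold higher mean in CDP. The next, from 65536451 to 65536800, was called higher in cDC, with 364 and 195 in CDP against 235 and 370, and the last, from 65536801 to 65537100, higher in CDP, with 147 and 101 against 73 and 129. Libraries overlapped at these last 2 regions, where the authors' deposited −log10 p was only 0.743 and 1.148. The region from 65535401 had the densest signal of the locus in both cell types, with means of 2276 per kb in CDP and 1777 per kb in cDC, and it lies left of the approximate gene start. The main region of the wide element, by comparison, averaged 1223 per kb in CDP and 661 per kb in cDC.

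Higher signal in cDC was also found at the flanking element. It read 996 and 920 in the CDP libraries and 1236 and 1363 in the cDC libraries, 1.36-fold apart, and both cDC libraries lay above both CDP libraries. Farther right, the largest ratio in favour of cDC was that of the region from 65566751 to 65567100, which read 39 and 47 in the CDP libraries and 73 and 133 in the cDC libraries, 2.36-fold apart. The largest in favour of CDP, from 65561301 to 65561450, was in a region of 0.15 kb that had 51 and 34 against 13 and 22, a 2.35-fold difference. Both are of low signal, and 4 of the 9 elements, these included, are missing from at least 1 other list.

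**Figure D3:**
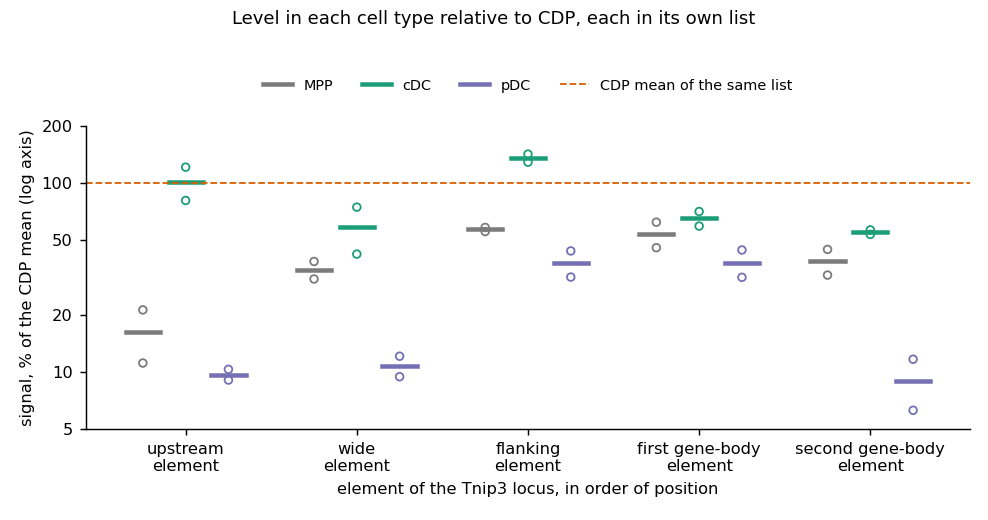
Signal in MPP, cDC and pDC as a percentage of the CDP mean of the same list (log axis), for the 5 elements in all lists, with bars for the mean and open circles for the 2 libraries. At the upstream element MPP stood at 16.3%, cDC at 101% and pDC at 9.74% of CDP.

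Set side by side as a share of the CDP level, each in its own list and all resting on the CDP libraries, the elements showed different ranges. At the upstream element MPP stood at 16.3%, cDC at 101% and pDC at 9.74% of CDP. At the wide element these shares were 34.8%, 58.4% and 10.8%. At the second gene-body element they were 38.6%, 55.1% and 9.01%. The flanking element had 56.9% in MPP, 136% in cDC and 37.8% in pDC. The first gene-body element had 53.9% in MPP, 65.0% in cDC and 38.1% in pDC, so that it and the flanking element had larger shares in MPP and pDC than the other 3 elements did. By these means the order over the block was CDP, cDC at 69.9%, MPP at 29.5% and pDC at 10.5%. The called lengths behind the shares differ between lists. For MPP, cDC and pDC they were 12.75, 13.45 and 12.9 kb at the block, and 0.85, 1.65 and 1.05 kb at the flanking element. The lowest CDP and the highest cDC sum over the block differed by less than the libraries of either cell type did among themselves. No list compares MPP with cDC or with pDC, so those neighbours in the order were not compared.

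The comparison of cDC with pDC uses none of the MPP or CDP libraries, and it was tested with limma over all 66319 regions of its list. Acetylation was higher in cDC at every listed region of the locus, and 5 of 6 passed an adjusted p of 0.05 (Benjamini-Hochberg over the list). Of all regions of the list, 9.32% passed and were higher in cDC. The 6 regions are neighbours measured in the same libraries and are not independent results. The same 5 that passed had an unadjusted p under 0.05. After rescaling to equal autosomal totals, 27.7% of all regions were called higher in cDC and 21.4% higher in pDC, against 9.32% and 23.3% as deposited. All regions of the list had been called by the authors from these 4 libraries, so the p-values are not independent of that choice. The locus was also chosen with earlier results of these data known, so they may not be independent of the choice of locus either. An exact two-sided permutation test of 2 libraries against 2 cannot go below 0.333.

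The upstream region, from 65533901 to 65537100, read 3624 and 5348 in the cDC libraries and 475 and 525 in the pDC libraries. Its log2 difference was 3.14 ± 0.31 (SE, 2 libraries against 2, limma adjusted p = 0.000261). The first region of the wide element, from 65537851 to 65544800, read 3252 and 6049 in the cDC libraries and 758 and 983 in the pDC libraries, a log2 difference of 2.36 ± 0.35 (limma adjusted p = 0.00134). The second region of the wide element, from 65545601 to 65547600, had 1102 and 1614 against 272 and 288, a log2 difference of 2.25 ± 0.34 (limma adjusted p = 0.00139). Both pDC libraries were far below both cDC libraries at the block, although the cDC libraries themselves differed by more than their list-wide offset.

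Inside the gene, the flanking region from 65549101 to 65550550 read 1208 and 1341 in the cDC libraries and 322 and 406 in the pDC libraries, a log2 difference of 1.81 ± 0.32 (limma adjusted p = 0.00288). The second gene-body region, from 65564001 to 65565150, had 624 and 643 against 83 and 132, a log2 difference of 2.59 ± 0.41 (limma adjusted p = 0.00182). The first gene-body region, from 65562151 to 65562600, did not pass, with 163 and 179 in cDC against 77 and 132 in pDC. Its log2 difference was 0.75 with a 95% interval from -0.39 to 1.89 (limma adjusted p = 0.304). With equal autosomal totals it passed at 1.23 (limma adjusted p = 0.0412). The median log2 difference of cDC minus pDC over all regions was -0.22. All 6 regions had separate libraries in favour of cDC, which 26.0% of the list do.

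**Figure D4:**
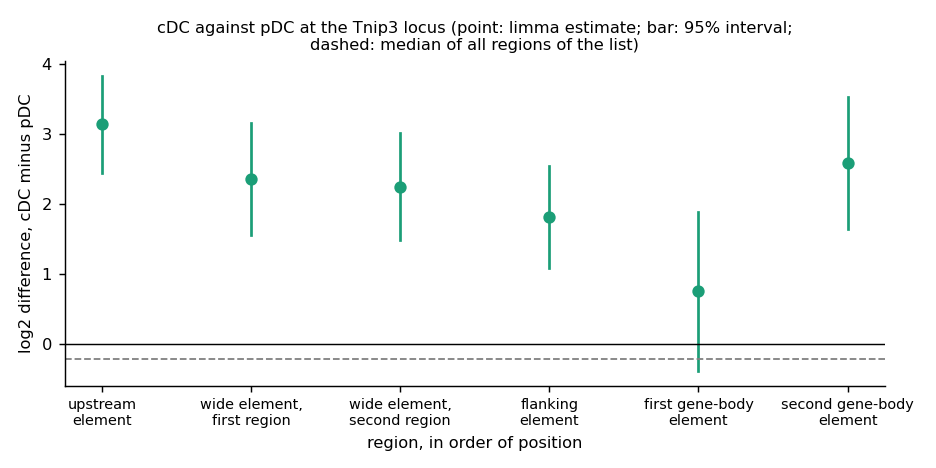
Log2 difference of cDC minus pDC for the 6 regions of the locus in order of position (points, limma estimates; bars, 95% intervals), with 0 as a solid line and the median of all regions, -0.22, as a dashed line. The estimates run from 0.75 at the first gene-body region to 3.14 at the upstream region, and the bar of the former crosses 0.

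To place the locus among others, regions higher in CDP than MPP and less than 1 kb apart were joined. Of the 289 stretches of at least 5 kb, 254 besides the Tnip3 block had regions over at least 50% of their length in each other list. Among these, 10 had at least the block's ratio of CDP to MPP and 2 at least its ratio of CDP to pDC, and none had both. Likeness was measured as the distance between the 4 log2 ratios of summed signals, over the 8 libraries. The nearest stretch, at a distance of 0.329, was on chromosome 5 from 118853351 to 118859700. It read 2679 and 2034 in the MPP libraries and 8467 and 6817 in the CDP libraries (3.24-fold), and CDP exceeded cDC there 1.44-fold and pDC 11.3-fold. For the block these ratios were 3.39 (MPP), 1.43 (cDC) and 9.51 (pDC). This stretch thus fell only slightly short of the first ratio and exceeded the last. With a library left out, the block's log2 ratio of CDP to MPP ran from 1.57 to 1.98, against 1.70 for this stretch. The second, at 0.788, was on chromosome 12 from 87294701 to 87301850, with CDP 2.47-fold above MPP, 1.71-fold above cDC and 7.63-fold above pDC. Chromosome 11 from 70184751 to 70190100 followed at 1.22, with CDP 1.71-fold above MPP, 2.09-fold above cDC and 10.1-fold above pDC. Chromosome 15 from 80390351 to 80395600, at 1.33, had CDP 4.66-fold above MPP and 4.87-fold above pDC, while cDC was 1.19-fold above CDP. Chromosome 3 from 109250051 to 109255400, the last of the 5, had CDP 1.80-fold above MPP and 5.24-fold above pDC, and cDC 1.23-fold above CDP. The ratio of CDP to MPP in this measure is part of what chose the locus.

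**Figure D5:**
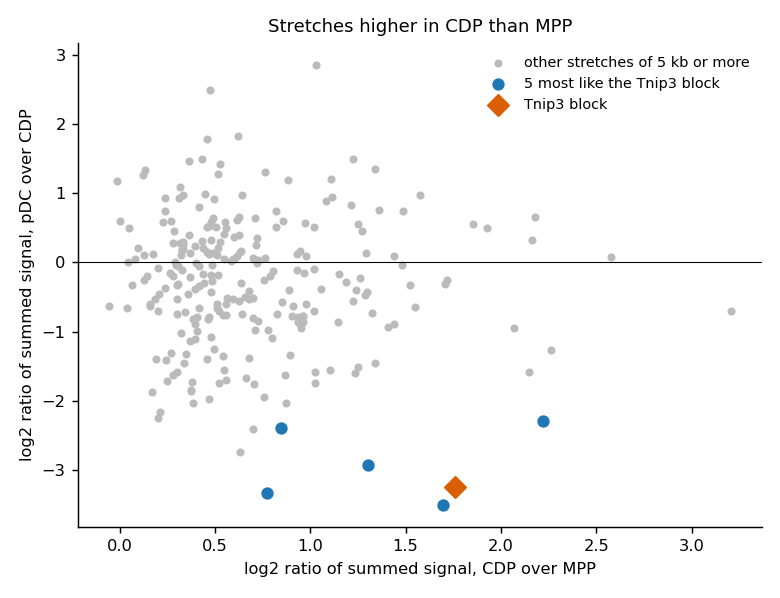
Log2 ratio of pDC to CDP against log2 ratio of CDP to MPP for 254 stretches of at least 5 kb (grey), the 5 most like the Tnip3 block (blue) and the block (orange diamond, at 1.76 and -3.25). The block lies near the lower edge of the plot, and no stretch is both to its right and below it. The most similar stretch, at 1.70 and -3.50, lies below it and slightly to its left.

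The window has an edge on each side. The nearest region inside it on the left, in the CDP and cDC list, ran from 65528451 to 65528850 with 115 and 152 in CDP against 80 and 40 in cDC. The nearest outside on that side, from 65514501 to 65514950 and 10.05 kb from the edge, read 75 and 39 in the CDP libraries and 93 and 173 in the cDC libraries. On the right, the nearest outside ran from 65621551 to 65623100, with 470 and 262 in CDP against 583 and 1130 in cDC. In the cDC and pDC list the nearest outside on the left, from 65514801 to 65515050, read 58 and 102 in the cDC libraries and 12 and 3 in the pDC libraries, a 9.53-fold difference on few units of signal. On the right, the nearest in that list (65621601 to 65623050) read 552 and 1079 in the cDC libraries and 293 and 409 in the pDC libraries, 2.32-fold apart. Higher signal in cDC than pDC was thus also listed on both sides of the window.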

How the data were processed

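H3K27ac libraries (2 each of MPP, CDP, cDC and pDC) were read from the authors' 4 deposited lists. Per the submitters' processing notes, reads were aligned with BWA 0.6.1 to mm9, and regions came from THOR, which calls differential peaks from replicates, per the series title. Caller settings, filters and p-value correction were not given in the sources used here. Each list packs, per region, the signals of 2 + 2 libraries and the authors' −log10 p. The authors' deposited signals are whole numbers scaled per library and list, in a unit other than read counts. On regions with identical bounds in 2 lists and signals of at least 50, the same library differed by a constant factor of 0.808 to 1.14 (SD at most 0.058 on the log2 scale, 10 pairs), against an SD of 0.453 or more in the 86 other pairs. This fixes the order of values, except that MPP, in a single list, rests on the list name. Values carry no replicate number.

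Single-region ratios are of group means plus 1, and ratios of elements, blocks and stretches are of summed signals. The cDC and pDC list was fitted with limma 3.58.1 (R 4.3.3, trend) on log2(signal + 1). The same fit was also run on data simulated from the list's own means and residual spread. That run does not vouch for the p-values given here. The locus, lists and rules were chosen with earlier results of these data known. Named regions are, per list, those with the highest mean signal in the block and outside it, the largest and smallest ratio, calls against the block's majority, and the first on each side. The other elements were named after their values were seen. Lists of A20 and NF-κB pathway genes and of cell type markers needed an mm9 annotation and were not tested. Alternatives were equal autosomal totals (sums over the listed autosomal regions), stricter p, a minimum of 500 bp, medians over regions, overlap, pseudocounts of 0.5 and 5, no trend, a filter on low signal and leaving out each library. Those applied outside the block, to single regions and to counts of separate libraries were added after seeing the data. Coordinates are 1-based. Python 3.11.15, pandas 2.3.3 and numpy 2.4.6 were used.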

Additional observations from a re-analysis of the deposited data

Results flagged for a closer look

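The flanking element, from 65549001 to 65550650 on chromosome 6, moved in opposite directions from CDP to the mature cell types. In cDC it stood at 1.36 times the CDP mean, with both cDC libraries above both CDP libraries. In pDC it stood at 0.378 times the CDP mean, with both pDC libraries below both CDP libraries. Both ratios share the CDP libraries, and the called lengths differed, 1.65 kb against cDC and 1.05 kb against pDC. The difference between the steps was not tested. In the list that compares the mature types directly, cDC exceeded pDC there by 1.81 on the log2 scale (limma adjusted p = 0.00288). The rise in cDC was of ordinary size, as 44.6% of the regions called higher in cDC than CDP had a smaller ratio. Nor was the pattern particular to this element. In the upstream element, the region from 65533851 to 65535250 was 1.45-fold higher in cDC. The libraries were separate there by a small margin only, 1487 in the lower cDC against 1427 in the higher CDP library. The region from 65534401 to 65537100, which overlaps that region in the CDP and pDC list, was 10.2-fold lower in pDC.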

How the results depend on the processing

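With the autosomal totals made equal, the median log2 ratio over all regions shifted by 0.14 (CDP to MPP), 0.08 (cDC to CDP), -0.30 (pDC to CDP) and -0.47 (pDC to cDC), and no region of the locus turned. Regions of the locus with separate libraries, in either direction, rose from 5 to 6 in the MPP and CDP list and from 11 to 13 in the CDP and cDC list. All further values are log2 ratios. CDP over MPP in the block was 1.76, and 2.07 as the median of single regions. Outside the block it was 0.98, and 1.12 with equal totals, 1.10 at a −log10 p of at least 10, 1.10 at 500 bp or more, 0.85 as the median of single regions and 0.89 to 1.09 with a library left out. CDP over cDC was 0.52 in the block, 0.02 as the median of single regions, and 0.20 to 0.93 with a library left out. Outside it was 0.24, and 0.14 with equal totals and 0.62 as the median. CDP over pDC was 3.25 in the block and 3.57 with equal totals, and outside it 2.17, 2.49 and, with a library left out, 1.92 to 2.48. In the block, cDC over pDC was 2.67, 3.12 with equal totals and 2.27 to 2.98 with a library left out. Outside it was 1.85, 2.35 and 1.63 to 2.11. The cause of these shifts was not tested. The count of cDC and pDC regions past the threshold was 6 with equal totals and 5 under every other setting run, including the filter on low signal, which removed the first gene-body region. Over the whole list, the 6178 regions that limma called higher in cDC as deposited became 18385 with equal totals, 3782 without the second-listed cDC library and 3188 without the first-listed pDC library, and the 15427 called higher in pDC became 9720 without the second-listed pDC library. None of the 5 most similar stretches reaches 10 kb, so 0 of them remained at that minimum. No paired analysis was possible because the deposited values carry no replicate number. Unknown depth leaves counting error unstated, and 2 libraries per cell type limit every comparison.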
